A study of Arabidopsis thaliana with 12 samples.

Results

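The comparison described here is that of CHX plus EPFL6 against CHX: seedlings given the peptide EPFL6 while translation was blocked with cycloheximide (CHX), set against seedlings given CHX and buffer. Its members are the 22589 genes, of 26702 in the deposited table, with a normalised read value of at least 10 in at least 3 of the 6 libraries. The rule uses levels only and no difference between the groups. Every library holds poly(A) RNA from Arabidopsis thaliana plants mutant in 5 genes, clv3 epfl1 epfl2 epfl4 epfl6, labelled as seedling shoot at 3 days post germination. The CHX plus EPFL6 group had 10 µM cycloheximide for 10 minutes and then 8.7 µl of 10 µM EPFL6 in 1 ml of liquid medium, which computes to 86.2 nM. The CHX group had the same cycloheximide and then the same volume of buffer. An EPFL6 group without cycloheximide and a mock group also enter the fit, where all 4 groups share 1 estimate of the spread, and they give the change with EPFL6 alone. Each group had 3 replicates, and each replicate was 10 pooled seedlings in its own medium. How long EPFL6 acted before collection is not stated in the labels. The 5 mutations are shared by all 4 groups, controls included, so no group stands for the wild type. Here "CHX library 3" means replicate 3 of that group, and values are reads divided by a size factor for each library.

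EPFL6 belongs to a family of small secreted cysteine-rich peptides that bind receptor kinases of the ERECTA family, whose signal passes through a MAP kinase cascade to transcription. In the shoot apical meristem these peptides restrict stem cell genes, in parallel to the CLV3 peptide, which acts through the CLAVATA receptors on the stem cell regulator WUSCHEL (WUS). Cycloheximide stops peptide elongation on cytosolic ribosomes. A transcript whose level still differs when translation is blocked is commonly read as one whose control needs no newly made protein, and cycloheximide on its own changes the level of very many transcripts.

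Depth was 71.3, 98.3 and 82.7 M reads in the CHX plus EPFL6 libraries and 89.4, 85.7 and 106.6 M reads in the CHX libraries. The first principal component of the 6 libraries, over 19852 genes with a mean of at least 50, held 61.9% of the variance and the second 16.2%. CHX plus EPFL6 scored 12.7, 37.9 and 37.7 on the first component, against −21.1, −19.8 and −47.4 for CHX. Replicate 1 of CHX plus EPFL6 therefore lay nearest to the CHX libraries, and replicate 3 of CHX lay farthest from the other group. Both libraries return below wherever a value rests on them.

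A member was called changed where limma, fitted on the log2 of the value plus 1 in all 12 libraries, gave a Benjamini-Hochberg adjusted p below 0.05 over 23225 genes. Of the 22589 members, 3120 (13.8%) were called: 1364 higher (6.04%) and 1756 lower (7.77%) with CHX plus EPFL6. The rises were small and the falls reached far. At least 1.5-fold, 154 members rose and 1043 fell. At least 2-fold, 18 rose (0.0797%) and 505 fell (2.24%). At least 4-fold, 0 rose and 130 fell, and at least 16-fold, 0 rose and 10 fell. The minimum of 10 has a part in this difference. It was reached in the CHX libraries alone by 122 members, of which 66 were called lower. In the CHX plus EPFL6 libraries alone 11 reached it, of which 0 were called higher. Among the 10, bZIP42, MCT1, AT5G59305, UFO and SYP124 passed through the CHX libraries alone, so their direction was fixed. The median log2 fold change over all members was 0.01. The 3 libraries of each group did not overlap, with CHX plus EPFL6 below, in 4041 members (17.9%), and with CHX plus EPFL6 above in 4162 (18.4%). Count models on the recovered reads gave other splits: edgeR with TMM scaling called 467 higher and 1041 lower, and DESeq2 1488 higher and 2288 lower.

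**Figure D1:**
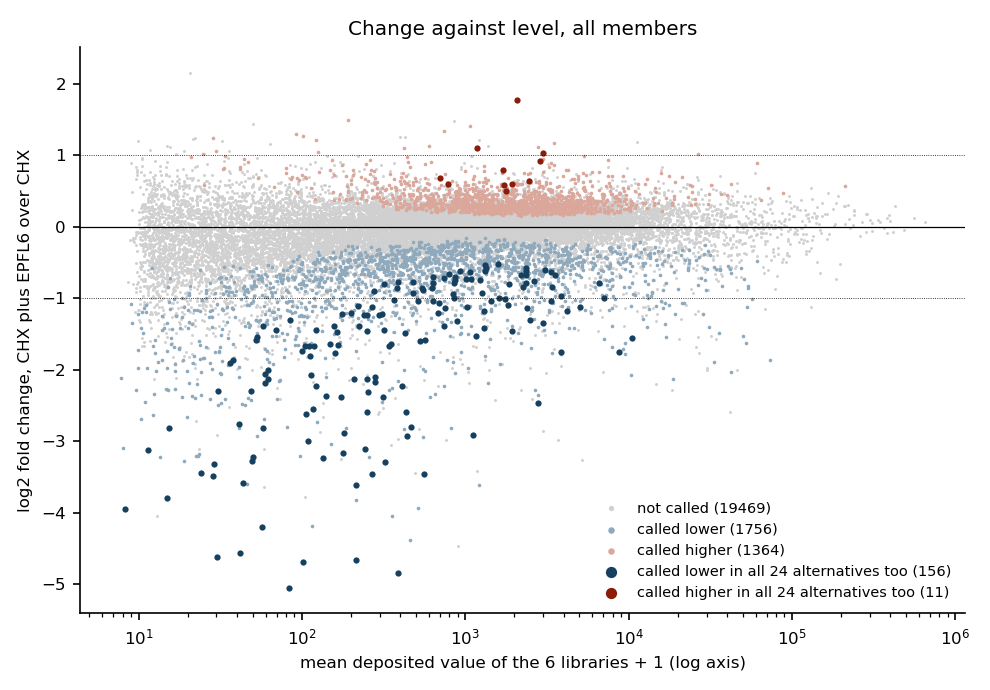
Log2 fold change of CHX plus EPFL6 over CHX against the mean deposited value of the 6 libraries plus 1 (log axis), 1 point per member. Dotted lines mark 2-fold; called members spread down to −5.05, while called rises end at 1.77.

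To see which calls hold under other choices, each member was followed through 24 alternatives: other tools, scalings, pseudocounts and filters, a replicate block, and each of the 12 libraries left out in turn. Called lower in the fit reported here and in every alternative that tested them were 156 members, with log2 fold changes from −5.05 to −0.52, and 112 of them fell at least 2-fold. Called higher throughout were 11 members, with log2 fold changes of 0.50 to 1.77, and 3 of them rose at least 2-fold. No member was called in the opposite direction in any of the 24 (0 reversed calls). The genes named below as holding throughout are from these 167. The count itself did not hold. With a replicate block on the 6 compared libraries alone, 234 members were called. With a library left out, the count ranged from 1040 without CHX replicate 3 to 3975 without CHX replicate 1. Without CHX replicate 2 it was 1684, and the 3 CHX plus EPFL6 libraries gave 2323, 1388 and 1208 when each was left out in turn.

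The stem cell and class I KNOX-BELL regulators gave the largest share of falls among the 23 gene lists. Of 26 genes listed, 23 were members, and 14 of these (60.9%, beside 7.77% of all members) were called lower and 0 higher. Their median log2 fold change was −0.75, beside 0.01 for all members. The lists were chosen with earlier results of these data known, so their shares and ranking are a description only. WUS, the homeobox gene that keeps stem cells undifferentiated from the organizing centre below them, had 131, 92.6 and 63.4 with CHX plus EPFL6, against 891, 1141 and 1026 with CHX. Every CHX plus EPFL6 library was below every CHX library, and the change was −3.45 ± 0.22 on the log2 scale (± SE; limma adjusted p = 1.1e-05). ESR1, also known as DORNROSCHEN, is an AP2-type transcription factor gene of the stem cell and organ founder regions, and it had 31.9, 33.2 and 14.6 with CHX plus EPFL6, against 752, 772 and 712 with CHX. Its change was −4.84 ± 0.25 (limma adjusted p = 3.6e-06), and CHX plus EPFL6 library 3 was the lowest. In a bulk library, fewer cells of a type and less RNA in each of those cells cannot be told apart.

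Among the further stem cell regulators, CLV3, the peptide that limits WUS, had 850.4, 867 and 841 with CHX plus EPFL6, against 4792, 4847 and 4486 with CHX. The CHX plus EPFL6 libraries differed from each other by little beside the gap to CHX (−2.46 ± 0.11, limma adjusted p = 2.3e-06). CLV3 is itself mutated in these plants, so its reads do not stand for a working peptide. STM, the KNOX gene that holds meristem cells undifferentiated, had 68.5, 141 and 98.8 with CHX plus EPFL6, against 546, 576 and 441 with CHX, and BLH8, a BELL-type partner of KNOX proteins, had 63.8, 76.9 and 70.7 with CHX plus EPFL6, against 460.0, 454 and 375 with CHX. The groups were apart for both. RPL, another BELL gene, had 635, 647 and 659 with CHX plus EPFL6, against 1091, 1157 and 1021 with CHX, a smaller change of −0.75 ± 0.08 (limma adjusted p = 0.0007). AGO10, an ARGONAUTE protein gene that keeps a small RNA away from HD-ZIP III transcripts, had 834, 904 and 874 with CHX plus EPFL6, against 1835, 1699 and 1465 with CHX, and DRNL, the paralogue of ESR1, 18.9, 28.0 and 17.7 with CHX plus EPFL6, against 69.0, 136 and 79.2 with CHX. WUS, ESR1, TEL2, CLV3, STM, BLH8, DRNL, AGO10 and RPL held throughout. KNAT1, KNAT2, KNAT6, SPT and ATH1 were lower as well, with log2 fold changes of −0.82, −0.81, −0.46, −0.60 and −0.67, and ATH1 the least firmly, with an adjusted p of up to 0.13 over the alternatives. The members not called included the GRAS genes AT2G45160, AT3G60630 and HAM3 at −0.06, 0.08 and −0.19, and WOX4 and WOX5 at −0.33 and −0.44. The 7 CLAVATA-type receptor genes contrast with this: 0 were called, and their log2 fold changes lay between −0.19 and 0.34, with CLV1 at 3036 ± 25.0 with CHX plus EPFL6 and 3248 ± 207 with CHX (SD, n = 3 each).

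**Figure D2:**
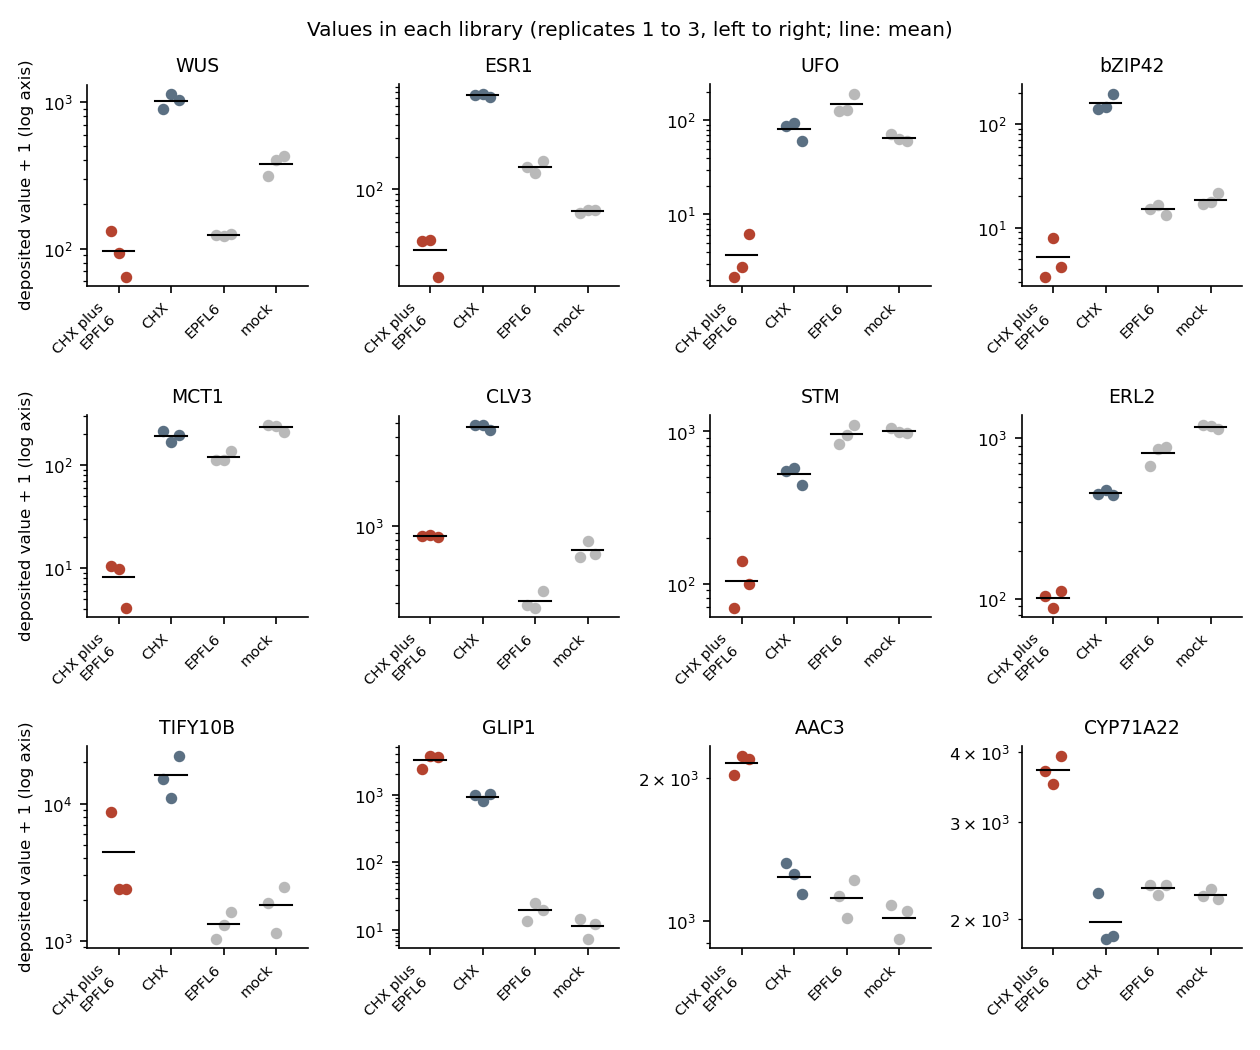
Deposited value plus 1 (log axis, own range in each panel) of 12 genes in each library, with a line at the mean of 3 replicates. CHX plus EPFL6 stands first and CHX next to it, followed by EPFL6 and mock; in all 12 genes the first 2 groups do not overlap.

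Floral and boundary regulators fell in part, some of them steeply. Of 10 floral members 4 (40%) were lower, beside 7.77% of all members, and 0 higher (median −0.77). UFO and LFY, among the 4, reached the minimum of 10 in the CHX libraries alone of the 6. The minimum thus fixed their direction, and the share is a description only. UFO, an F-box protein gene that acts with LEAFY in flower and meristem patterning, had 1.18, 1.75 and 5.20 with CHX plus EPFL6, against 85.6, 92.6 and 59.0 with CHX. The CHX plus EPFL6 values are at the level of a few reads, and the change of −4.56 ± 0.35 (limma adjusted p = 5.5e-05) ran from −5.00 to −3.02 over the alternatives, the smaller at a pseudocount of 8. LFY itself, at the low end of the table, had 1.18, 3.49 and 4.16 with CHX plus EPFL6, against 19.3, 34.6 and 23.6 with CHX and a change of −2.82 ± 0.37 (limma adjusted p = 0.0018). FD, a bZIP partner of the florigen, and TFL1, which keeps the shoot indeterminate, changed by −1.21 ± 0.18 and −1.15 ± 0.20. Of 14 boundary members 5 (35.7%) were lower and 0 higher. CUC1, a NAC gene that marks the boundary between organs, had 152, 111 and 137 with CHX plus EPFL6, against 316, 413 and 377 with CHX, and the groups were apart (−1.46 ± 0.14, limma adjusted p = 0.00029). MYB117, a boundary MYB gene also known as LOF1, had 5.91, 12.2 and 8.32 with CHX plus EPFL6, against 34.0, 39.7 and 24.4 with CHX. LSH3 and LOB changed by −1.26 and −0.72 at low values. LSH3 was not called without CHX library 2 or CHX plus EPFL6 library 1 or 2 (adjusted p = 0.094, 0.086 and 0.082), nor LOB without CHX library 3 or CHX plus EPFL6 library 1 (0.076 and 0.052). LAS, BOP1 and BOP2, at −0.04, 0.15 and 0.32, were not called.

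The promoters of 5 genes are shown because they stand at the ends of the range: 3 of the steepest falls in meristem genes, the largest rise, and a rise that held throughout and carries a motif more frequent among rises. Each runs from 250 bases before to 50 bases after the RefSeq gene start on the TAIR10.1 assembly, 5′ to 3′ in the direction of the gene, with capitals at the letters of any of the 12 motifs searched.
WUS (chr2:7810762-7811061, minus strand): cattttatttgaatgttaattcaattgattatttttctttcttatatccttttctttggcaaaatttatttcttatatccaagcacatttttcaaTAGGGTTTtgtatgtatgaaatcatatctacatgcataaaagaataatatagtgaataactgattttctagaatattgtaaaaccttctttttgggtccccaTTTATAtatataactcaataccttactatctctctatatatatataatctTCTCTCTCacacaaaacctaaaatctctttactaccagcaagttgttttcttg
ESR1 (chr1:4429468-4429767, plus strand): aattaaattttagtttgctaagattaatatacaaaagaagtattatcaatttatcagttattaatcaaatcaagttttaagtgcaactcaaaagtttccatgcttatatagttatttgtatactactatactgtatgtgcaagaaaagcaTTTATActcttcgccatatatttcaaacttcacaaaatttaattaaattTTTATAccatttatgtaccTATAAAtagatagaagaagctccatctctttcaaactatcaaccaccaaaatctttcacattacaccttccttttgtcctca
UFO (chr1:11035742-11036041, plus strand): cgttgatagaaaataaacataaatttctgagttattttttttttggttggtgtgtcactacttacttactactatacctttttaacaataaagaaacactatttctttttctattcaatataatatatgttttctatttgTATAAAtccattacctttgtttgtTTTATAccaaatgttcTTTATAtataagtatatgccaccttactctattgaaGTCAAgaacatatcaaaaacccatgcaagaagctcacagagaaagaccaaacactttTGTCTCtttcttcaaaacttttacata
GLIP1 (chr5:16418592-16418891, plus strand): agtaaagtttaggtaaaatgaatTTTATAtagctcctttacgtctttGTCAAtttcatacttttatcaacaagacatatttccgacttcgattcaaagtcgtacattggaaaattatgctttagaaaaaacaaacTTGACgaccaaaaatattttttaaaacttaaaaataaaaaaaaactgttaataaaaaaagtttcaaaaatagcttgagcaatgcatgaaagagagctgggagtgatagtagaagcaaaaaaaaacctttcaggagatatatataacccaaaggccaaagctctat
AAC3 (chr4:14043298-14043597, minus strand): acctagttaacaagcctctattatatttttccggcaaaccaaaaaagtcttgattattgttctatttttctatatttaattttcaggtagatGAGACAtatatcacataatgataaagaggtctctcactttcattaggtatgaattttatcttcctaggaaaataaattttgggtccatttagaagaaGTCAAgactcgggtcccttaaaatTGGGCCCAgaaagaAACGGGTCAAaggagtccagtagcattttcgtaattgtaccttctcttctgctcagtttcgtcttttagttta
In WUS the capitals mark a telo box, a GAGA repeat and TTTATA 53 bases before the start. TTTATA is a match to the TATA box letters TATAAA on the other strand. Of the 3 TATA box matches in ESR1, that at −32 reads TATAAA, and those at −100 and −51 read TTTATA. UFO has a W-box core, an auxin response element and 3 such matches, TATAAA at −110 and TTTATA at −86 and −70. GLIP1 has TTTATA at −227 and a pair of W-box cores. AAC3 has a site II element on both strands as a palindrome, beside W-box cores, an auxin response element and a mitosis-specific activator core.

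Over all members with a readable window, 22467 promoters, the largest gap in percentage points between rises and falls was that of the site II element TGGGCC, searched on both strands like every motif here. It was present in 24.6% of the 1364 promoters of members called higher, in 11.9% of the 1756 called lower and in 7.5% of the 505 at least 2-fold lower, beside 17.5% of all. The GCC box GCCGCC was in 4.9% of promoters of higher members, 1.5% of lower ones and 2.7% of all. The auxin response element TGTCTC was in 12.5% of higher, 16.3% of lower and 13.9% of all, and the G-box CACGTG in 7.5%, 10.4% and 8.4%. TATAAA was in 49.9%, 53.1% and 51.6%, and in 58.0% of those at least 2-fold lower. The W-box core TTGAC was in 50.4%, 47.0% and 51.2%, and the mitosis-specific activator core AACGG in 28.3%, 25.2% and 25.7%. The telo box was in 7.3%, 3.4% and 5.7%, the GAGA repeat in 8.4%, 9.2% and 8.6%, and the evening element in 4.3%, 5.5% and 5.8%. The E2F element was in 0.8%, 1.1% and 0.8% and the HD-ZIP element in 1.6%, 1.0% and 1.1%. The median GC content of the windows was 32.0%, 31.7% and 32.0% in the same order. A match describes letters in a window and is no evidence of a bound factor.

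Organ growth and leaf polarity genes fell in part. Of 20 organ growth members 10 (50%) were lower, beside 7.77% of all members, and 0 higher, with a median of −0.59. CYP78A5, also known as KLUH, is a cytochrome P450 gene that promotes organ growth from the organ margin, and it had 31.9, 56.8 and 45.7 with CHX plus EPFL6, against 540.1, 527 and 413 with CHX. The groups were far apart (−3.46 ± 0.22, limma adjusted p = 1.1e-05). Its relative CYP78A7 had 55.5, 69.0 and 69.7 with CHX plus EPFL6, against 173, 202 and 160.0 with CHX, while CYP78A6, CYP78A8, CYP78A9 and CYP78A10 changed by 0.16, 0.48, 0.02 and 0.04 and were not called. ANT, an AP2-type gene that sustains growth of primordia, had 142, 170.4 and 192 with CHX plus EPFL6, against 524, 626 and 435 with CHX, and AIL7, its relative, 563, 550.4 and 579 with CHX plus EPFL6, against 1223, 1138 and 1029 with CHX. AN3, the coactivator of the growth-regulating factors, had 241, 299 and 269 with CHX plus EPFL6, against 438, 543 and 493 with CHX. These 5 genes held throughout. Of 26 polarity members 8 (30.8%) were lower and 0 higher (median −0.23). The little zipper genes led: ZPR3, whose small protein blocks HD-ZIP III factors, had 70.9, 93.5 and 88.4 with CHX plus EPFL6, against 409, 428 and 427 with CHX, and ZPR2 had 21.3, 16.6 and 23.9 with CHX plus EPFL6, against 85.6, 109.9 and 96.0 with CHX. The HD-ZIP III genes PHB and ATHB-15, which set the upper side of the leaf, fell by less, with −0.52 ± 0.08 and −0.51 ± 0.08. The KANADI genes KAN, KAN2 and KAN3 of the lower side changed by 0.22, 0.01 and 0.20 and were not called, and 0 of 5 TCP genes in the list was called.

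**Figure D3:**
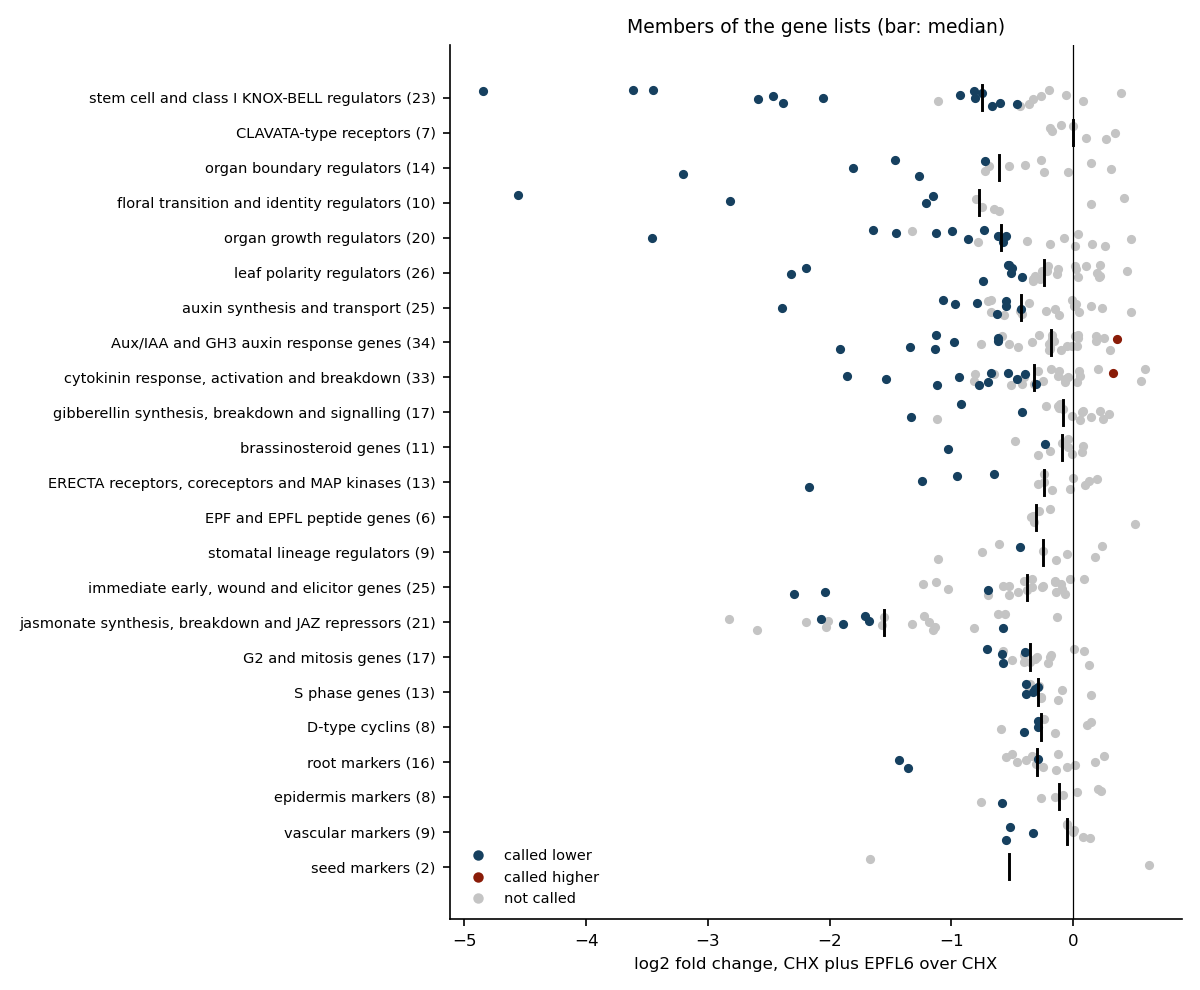
Log2 fold change of CHX plus EPFL6 over CHX for the members of the 23 gene lists (number of members in parentheses), with a bar at each median. Dark blue points were called lower, red points higher and grey points not called; the stem cell list holds 14 members called lower and the CLAVATA-type receptors 0.

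The steepest falls outside the lists were of genes of many kinds. bZIP42, a leucine-zipper factor gene, had the largest fall of all called members, with 2.36, 6.99 and 3.12 with CHX plus EPFL6, against 138, 145 and 196 with CHX (−5.05 ± 0.31, limma adjusted p = 9.8e-06). All 3 CHX plus EPFL6 values are below the minimum of 10. MCT1 encodes the short Mei2-like type of RNA-binding protein and had 9.45, 8.74 and 3.12 with CHX plus EPFL6, against 213, 169 and 196 with CHX, and TEL2, a longer Mei2-like gene from the stem cell list, had 29.5, 34.9 and 29.1 with CHX plus EPFL6, against 443, 429 and 320.0 with CHX. AT5G59305, annotated as a CLE-like peptide gene, had 2.36, 0.874 and 1.04 with CHX plus EPFL6, against 47.8, 62.1 and 61.5 with CHX. All 4 held throughout. So did AT1G47485, a gene for a carboxy-terminally encoded peptide chosen after its values were seen, with 8.27, 3.49 and 6.24 with CHX plus EPFL6, against 82.8, 81.4 and 75.0 with CHX. SYP124, a syntaxin gene, had 2.36, 6.99 and 4.16 with CHX plus EPFL6, against 45.1, 111 and 167 with CHX. Its CHX libraries were far from each other, and it shares 232 bases with the gene AT1G61280. AT2G06045, annotated as a pseudogene, had 21.3, 5.24 and 18.7 with CHX plus EPFL6, against 221, 260.4 and 756 with CHX; it was at 0 in mock and its CHX value was highest in replicate 3.

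Some of the steepest falls rested on spread-out libraries. MYB24, a MYB gene of stamen development, had 242, 3.49 and 32.2 with CHX plus EPFL6, against 745, 309 and 1406 with CHX, and CHX plus EPFL6 library 1 came close to the lowest CHX library (−4.38 ± 1.20, limma adjusted p = 0.038). Leaving out CHX library 1, 2 or 3 ended the call (adjusted p = 0.065, 0.056 and 0.14). CHX plus EPFL6 library 2 or 3 did too (0.097 and 0.095), as did mock library 1 and EPFL6 library 1 (0.053 and 0.051). The noncoding gene AT5G40348 overlaps MYB24 by 2591 bases on the other strand, and since no strand setting is given their reads cannot be told apart. AT5G40348 itself was not called without CHX library 3 or CHX plus EPFL6 library 2 or 3 (0.092, 0.060 and 0.065). PGL5, a gene of the oxidative pentose phosphate pathway, was not called without CHX library 1 or 3, nor without CHX plus EPFL6 library 2 or 3 (0.072, 0.12, 0.11 and 0.082). ATSDI1, a sulfur starvation marker, had 477, 147 and 43.7 with CHX plus EPFL6, against 2094, 745 and 3733 with CHX and was not called without CHX library 3 (0.063). The lipid transfer gene LTP4 had 20.1, 36.7 and 14.6 with CHX plus EPFL6, against 766, 153 and 294 with CHX; it was not called without CHX plus EPFL6 library 3 (0.053), and the similar LTP3 lies beside it, so the counting may split their reads. AT1G54020 and AT5G15660 changed by −3.93 ± 0.94 and −3.61 ± 0.72, and AT1G54020 was not called without CHX library 3, nor without CHX plus EPFL6 library 2 or 3 (0.093, 0.081 and 0.060).

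The REM genes, B3-type factors active in reproductive meristems, fell as a neighbourhood. REM1, AT4G31615, AT4G31620, AT4G31630 and AT4G31640, from 15317499 to 15329791 on chromosome 4 (TAIR10.1), were each at least 2-fold lower. This was the longest of 38 runs of at least 2 neighbouring members that fell so far, and 5 runs held at least 3. REM1 had 131, 126 and 92.5 with CHX plus EPFL6, against 770.1, 914 and 761 with CHX, and AT4G31620 had 60.2, 56.8 and 34.3 with CHX plus EPFL6, against 492, 389 and 414 with CHX. AT4G31615 had 9.45, 12.2 and 19.8 with CHX plus EPFL6, against 111, 103 and 85.9 with CHX, and it shares 21 bases with REM1 on the other strand. In all of them the groups were apart. Of 8 members named REM in the annotation 4 were lower. By the same naming, 13 of 64 homeobox members of the HB, BLH, KNAT and WOX names were lower and 5 higher, 8 of 38 bZIP members were lower and 0 higher, and 7 of 21 bHLH members were lower and 1 higher. WRKY members had 6 of 66 lower, MYB members 12 of 108 and TCP members 0 of 17, with 1, 7 and 1 higher. The shares lower among WRKY and MYB members, 9.09% and 11.1%, lie near the 7.77% of all members. Named after their values were seen, PAN, a bZIP gene that sets floral organ number, had 90.9, 133 and 93.6 with CHX plus EPFL6, against 479, 486 and 389 with CHX. PAN shares 685 bases with AT1G68630 on the other strand. Chosen likewise, HLS1, of the apical hook, had 124, 157 and 151 with CHX plus EPFL6, against 729, 718 and 584 with CHX.

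Among auxin and cytokinin genes most members were not called, and a few fell steeply. Of 25 auxin synthesis and transport members 8 (32%) were lower, beside 7.77% of all members, and 0 higher (median −0.43). YUC4, a flavin monooxygenase gene that completes auxin synthesis, had 33.1, 78.6 and 59.3 with CHX plus EPFL6, against 269.6, 316 and 271 with CHX (−2.39 ± 0.25, limma adjusted p = 0.00045). TAA1, of the step before it, had 365, 485 and 484 with CHX plus EPFL6, against 867, 960.4 and 952 with CHX. The efflux carrier genes PIN3, PIN4 and PIN7 changed by −0.01, 0.15 and 0.24 and were not called. Of 34 Aux/IAA and GH3 members 7 (20.6%) were lower and 1 higher. IAA29 had 183, 163 and 158 with CHX plus EPFL6, against 399, 361 and 343 with CHX, and IAA31 15.4, 15.7 and 26.0 with CHX plus EPFL6, against 45.1, 49.8 and 49.7 with CHX. The 1 rise, IAA10, was 0.36 ± 0.09, and it was not called without CHX library 1 or 3, nor without CHX plus EPFL6 library 1 or 3 (adjusted p = 0.051, 0.077, 0.051 and 0.090). IAA10 shares 619 bases with AT1G04105 on the other strand. Of 33 cytokinin members 11 (33.3%) were lower and 1 higher, and 1 of the 11 falls held throughout. CKX3, an enzyme that degrades cytokinin and is expressed in the organizing centre, had 361, 385 and 253 with CHX plus EPFL6, against 1056, 1080.4 and 1481 with CHX. ARR15 and RR16, type-A response regulators that damp the signal, had 42.5, 54.2 and 41.6 with CHX plus EPFL6, against 144, 108 and 157 with CHX and 275, 276 and 305 with CHX plus EPFL6, against 483, 433 and 549 with CHX. The receptor gene WOL changed by −0.46 ± 0.06 and its relative HK3 by 0.33 ± 0.08, the 1 rise, with an adjusted p of up to 0.12 over the alternatives. ARR7, RR5 and ARR4, at −0.04, −0.06 and −0.13, were not called.

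Of 17 gibberellin members 3 (17.6%) were lower and of 11 brassinosteroid members 2 (18.2%), beside 7.77% of all members, and 0 were higher. RGL1, a DELLA repressor gene, had 215, 183 and 183 with CHX plus EPFL6, against 344, 359 and 397 with CHX (−0.92 ± 0.15, limma adjusted p = 0.0053). BAS1, which inactivates brassinosteroids, had 232, 253 and 235 with CHX plus EPFL6, against 507, 531 and 433 with CHX (−1.03 ± 0.11, limma adjusted p = 0.00056) and held throughout. The other called members were less firm. RGL3, whose libraries overlapped between the groups, passed in 7 of 24 alternatives, GA2OX2 in 11 and BZR1 in 7. GA1, which starts gibberellin synthesis and was named after its values were seen, had 89.8, 75.1 and 53.0 with CHX plus EPFL6, against 230.0, 227 and 215 with CHX.

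The ERECTA family receptor genes were lower, and the genes of the cascade behind them were not called. Of 13 members of the list, 4 (30.8%) were lower, beside 7.77% of all members, and 0 higher. The 4 are the receptor genes and TMM. ERL2 had 103, 87.4 and 111 with CHX plus EPFL6, against 446, 475 and 441 with CHX, a wide gap between the groups (−2.17 ± 0.12, limma adjusted p = 4.7e-06). ERL1 had 141, 149 and 149.7 with CHX plus EPFL6, against 357, 414 and 279.6 with CHX (−1.24 ± 0.16, limma adjusted p = 0.0019); it shares 82 bases with AT5G62240 on the other strand. Both held throughout. AT2G26330, the ERECTA gene itself, had 503, 529 and 653 with CHX plus EPFL6, against 835, 1092 and 739 with CHX, and its call was lost without CHX plus EPFL6 library 1 or 2 (0.051 and 0.062). TMM, a receptor-like protein that modulates ERECTA receptors in the stomatal lineage, had 33.1, 37.6 and 40.5 with CHX plus EPFL6, against 52.4, 97.7 and 74.1 with CHX; leaving out CHX library 2 or 3, or any CHX plus EPFL6 library, ended the call (adjusted p = 0.053 to 0.076). The coreceptor BAK1 had 22828, 24903 and 22605 with CHX plus EPFL6, against 21424, 23587 and 25568 with CHX, and the kinases YDA, MKK4, MKK5, MPK3 and MPK6 changed by −0.17, 0.20, 0.10, −0.24 and 0.13. Of 6 EPF and EPFL peptide members 0 were called. Of 9 stomatal lineage members 1 (11.1%) was lower, a share near that of all members. It was HDG2, an epidermal homeodomain gene, with 190.2, 198 and 184 with CHX plus EPFL6, against 263, 249 and 260.2 with CHX. HDG2 shares 1667 bases with a noncoding gene on the other strand.

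Jasmonate genes stood lower with CHX plus EPFL6, but with a wide spread between libraries. All 21 jasmonate members had a log2 fold change below 0, with a median of −1.55, and 17 had no overlap (beside 17.9% of all members). Of the 21, 5 (23.8%) were called lower, beside 7.77% of all members. TIFY10B, also known as JAZ2, a repressor induced by jasmonate, had 8625, 2380.0 and 2395 with CHX plus EPFL6, against 15048, 10912 and 22340.3 with CHX. CHX plus EPFL6 library 1 stood far above the other two. OPR3, an enzyme of jasmonate synthesis, had 22902, 7088 and 14267 with CHX plus EPFL6, against 36167, 42479.9 and 77201 with CHX, and JAZ7 had 7534, 2363 and 2691 with CHX plus EPFL6, against 11195, 10449 and 13468 with CHX. LOX3, of the first step of the pathway, had 14852, 8174 and 11249 with CHX plus EPFL6, against 28746, 38464 and 80756 with CHX, and at −2.01 ± 0.78 it was not called (limma adjusted p = 0.11). TIFY10B, OPR3, JAZ7 and TIFY7 lost their calls without CHX library 3, and likewise without CHX plus EPFL6 library 2 or 3 (adjusted p from 0.061 to 0.10). OPR3 and JAZ7 also lost them without CHX library 2 (0.054 and 0.052). Of 25 immediate early and wound genes, 24 had a log2 fold change below 0, with a median of −0.38. No overlap, with CHX plus EPFL6 below, was seen in 16 of them, beside 17.9% of all members. Yet 3 (12%) were called lower and 0 higher, a share near the 7.77% of all members. The 3 were RRTF1, with 1299, 402 and 1112 with CHX plus EPFL6, against 2861, 3408 and 7001 with CHX, BHLH92, with 28618, 13206 and 9979 with CHX plus EPFL6, against 60702, 45676 and 94280.4 with CHX, and WRKY22, at −0.70 ± 0.17. BHLH92 was not called without CHX library 3 (adjusted p = 0.064), nor without CHX plus EPFL6 library 2 or 3 (0.053 and 0.056). RRTF1 was not called without CHX library 3 or CHX plus EPFL6 library 2 (0.072 and 0.052), and it shares 661 bases with a noncoding gene on the other strand. WRKY22 was not called without CHX library 2 or 3, nor without any CHX plus EPFL6 library (0.052 to 0.089). WRKY33, WRKY40 and WRKY53, at −0.07, −0.34 and −0.14, were not called. TCH3, a touch-induced calmodulin-like gene, averaged 364462 ± 7753 with CHX plus EPFL6 and 369944 ± 20003 with CHX (SD, n = 3 each) and was not called.

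Division genes were lower by less than 2-fold where they were called. Of 13 S phase members 5 (38.5%) were lower, of 17 G2 and mitosis members 4 (23.5%) and of 8 D-type cyclins 3 (37.5%), beside 7.77% of all members, and 0 were higher in any of them. Of these calls 0 held throughout, and RNR2A and CYCB2;3 passed in 8 of 24 alternatives each. CYCD3;1, a cyclin that drives entry into division, had 716, 771 and 785 with CHX plus EPFL6, against 942, 992 and 1064 with CHX, and it was not called without CHX library 3 (adjusted p = 0.062). CDKB2;1, a mitotic kinase gene, had 211, 232 and 206 with CHX plus EPFL6, against 282, 372 and 424 with CHX. Both shifts were small beside those of the meristem genes. CYCB1;1, a mitotic cyclin, averaged 92.5 ± 37.7 with CHX plus EPFL6 and 87.2 ± 9.38 with CHX (SD, n = 3 each) and was not called.

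Summed markers of root, epidermis and vasculature differed less between the groups than the stem cell list, and seed markers differed more. The stem cell list was chosen with earlier results of these data known, so its gap is a description only. CLV3 alone averaged 853 with CHX plus EPFL6 and 4708 with CHX, within mean sums of 8223 and 17180 for that list. Over all genes listed, the 26 stem cell genes were at 8022 to 8412 with CHX plus EPFL6 and 16269.9 to 17786 with CHX, so the sums did not overlap. The 19 root markers were at 3632 to 4304 with CHX plus EPFL6 and 4259 to 4954 with CHX, and 3 of 16 members were lower. The 9 epidermis markers were at 14080.2 to 15327 and 13891 to 15538, with 1 of 8 lower. The 9 vascular markers were at 24597 to 26072 and 25864 to 27393, with 3 of 9 lower. The 6 seed markers, of which 2 were members, were at 498 to 769 and 1000.1 to 2699, with 0 called. Over all members 7.77% were called lower. None of the listed markers was at 0 in all 6 libraries. Root markers were thus present in libraries labelled as shoot. The part of tissue makeup in the calls above was not tested.

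The genes that rose did so by small amounts, and most stood at middle and high levels. Above a mean value of 1000 and up to 3000, 10.2% of 5566 members were higher and 6.29% lower. Between 100 and 300, 2.05% of 2824 were higher and 10.3% lower. From 3000 to 10000 the shares were 10.7% higher and 5.80% lower. Above 10000 they turned, with 3.57% of 1456 higher and 7.55% lower. GLIP1, a secreted lipase gene of pathogen defence and the largest called rise, had 2371, 3748 and 3544 with CHX plus EPFL6, against 969.8, 808 and 1006 with CHX (1.77 ± 0.29, limma adjusted p = 0.0052). CYP71A22, a P450 gene, had 3706, 3506 and 3943 with CHX plus EPFL6, against 2225, 1844 and 1868 with CHX. AT4G08780, a peroxidase gene, had 4055, 4241 and 3797 with CHX plus EPFL6, against 2006, 1953 and 1978 with CHX; similar peroxidase genes may share its reads. AAC3, an ADP/ATP carrier of the mitochondrial membrane, had 2032, 2227 and 2196 with CHX plus EPFL6, against 1325, 1252 and 1141 with CHX, and ECI1, of fatty acid breakdown, had 862, 997 and 968 with CHX plus EPFL6, against 599.9, 633 and 626 with CHX. QC, a glutaminyl cyclase gene, had 2062, 2429 and 2435 with CHX plus EPFL6, against 1408, 1645 and 1538 with CHX, and CCT2, of phosphatidylcholine synthesis, 1991, 2049.7 and 2181 with CHX plus EPFL6, against 1416, 1425 and 1549.6 with CHX. QC shares 1206 bases with a noncoding gene on the other strand. These 7 held throughout, as did AT1G14640, AT3G60680, AT4G37022 and AT5G12420; those that are not among the 10 largest rises were picked with their values in view.

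The other large rises held less well. CYP82C2, a P450 of indole defence metabolism, had 263, 366 and 216 with CHX plus EPFL6, against 136, 67.1 and 99.4 with CHX and was not called without CHX library 2 or 3, nor without any CHX plus EPFL6 library (adjusted p = 0.057 to 0.10). NIT4, which detoxifies cyanide products, had 1422, 1484 and 1675 with CHX plus EPFL6, against 828, 365 and 624 with CHX and lost its call without the same 5 libraries (0.058 to 0.095). AT5G03490, a glycosyltransferase gene, had 3764, 3774 and 3804 with CHX plus EPFL6, against 2286, 1645 and 1406 with CHX, AT5G39030, a receptor-type kinase gene, 738, 792 and 954 with CHX plus EPFL6, against 410.4, 404 and 318 with CHX, and AT4G01180 148, 150.3 and 208 with CHX plus EPFL6, against 75.4, 84.4 and 57.3 with CHX. In these 3 the groups were apart, and leaving out a library ended no call. AT1G65970, a peroxiredoxin gene, AT1G01390, AT4G19360 and AT4G22530 rose by 1.33, 1.30, 1.27 and 1.17, and passed in 21, 11, 16 and 15 of 24 alternatives. AT1G65970 was not called without library 3 of CHX or of CHX plus EPFL6 (0.064 and 0.054). For the other 3, leaving out library 2 or 3 of either group ended the call in each (0.054 to 0.15). Leaving out CHX plus EPFL6 library 1 did so for AT1G01390 and AT4G22530 (0.051 and 0.099). AT1G01390 was also lost without mock library 1 or any EPFL6 library (0.050 to 0.059), and AT4G22530 without mock library 1 or EPFL6 library 1 (0.061 and 0.058).

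Genes can be compared in level only per kilobase of exon, and on that scale the largest differences between the groups were those of highly expressed genes. AT3G15356, a legume-type lectin gene, had 235513, 226138 and 295705 with CHX plus EPFL6, against 158435, 181565 and 169692 with CHX, a rise of 0.56 ± 0.16. AT5G61160, an acyltransferase gene, had 67173, 80044 and 91885 with CHX plus EPFL6, against 35361, 46649.9 and 46258 with CHX. AT1G61890, a MATE transporter gene, had 39186, 23637 and 28702 with CHX plus EPFL6, against 77382, 92338 and 180459 with CHX, a change of −1.87 ± 0.32, with CHX library 3 far above the rest. Leaving out any CHX or CHX plus EPFL6 library ended the calls of AT3G15356 and AT5G61160 (adjusted p = 0.054 to 0.13), as did mock library 1 or 3 or EPFL6 library 2 for both (0.050 to 0.063) and mock library 2 for AT5G61160 (0.051). The call of AT1G61890 outlasted the loss of any library.

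Of the members, 21507 were at the minimum of 10 in all 6 libraries, 755 in 4 or 5 and 327 in 3. Just outside, 329 genes reached it in 2 libraries and 502 in 1. Genes at it in 3 libraries had a median mean value of 10.8, and those at it in 2 had 8.37. Of the members, 122 passed through the CHX libraries alone, and 66 of them were called lower; 11 passed through the CHX plus EPFL6 libraries alone, and 0 were called higher. A gene that passed in that way had to differ, so these counts describe the minimum and support no direction. In bZIP42, UFO, LFY, MCT1, AT5G59305, SYP124, AT5G15660 and AT1G47485 every CHX plus EPFL6 value was under 10.

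The members that fell were set beside their change with EPFL6 alone. The EPFL6 and mock libraries do not enter the fold change under CHX, but they share in the estimate of the spread behind the calls, and leaving each of them out is among the alternatives that chose the 112 members named next, so the shares below are a description. Of the 505 members at least 2-fold lower, 59.2% had a log2 fold change below 0 for EPFL6 against mock, beside 48.8% of all members. Among the 112 that held throughout it was 73.2%, and among the other 393 it was 55.2%. With no overlap and EPFL6 lower, the shares were 10.9% of the 505, 25.9% of the 112 and 6.62% of the 393, beside 3.08% of all members, and 3.58% of all had no overlap with EPFL6 higher. EPFL6 against mock itself called 4 members (0.0177%). Between CHX and mock, the median log2 fold change was 0.75 for the 112 and 2.48 for the 393. The CHX replicates of the 393 varied by a median coefficient of variation of 28.1%, beside 12.5% for the 112 and 9.74% over all members. The CHX libraries serve in both contrasts, so these medians only describe the CHX level.

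**Figure D4:**
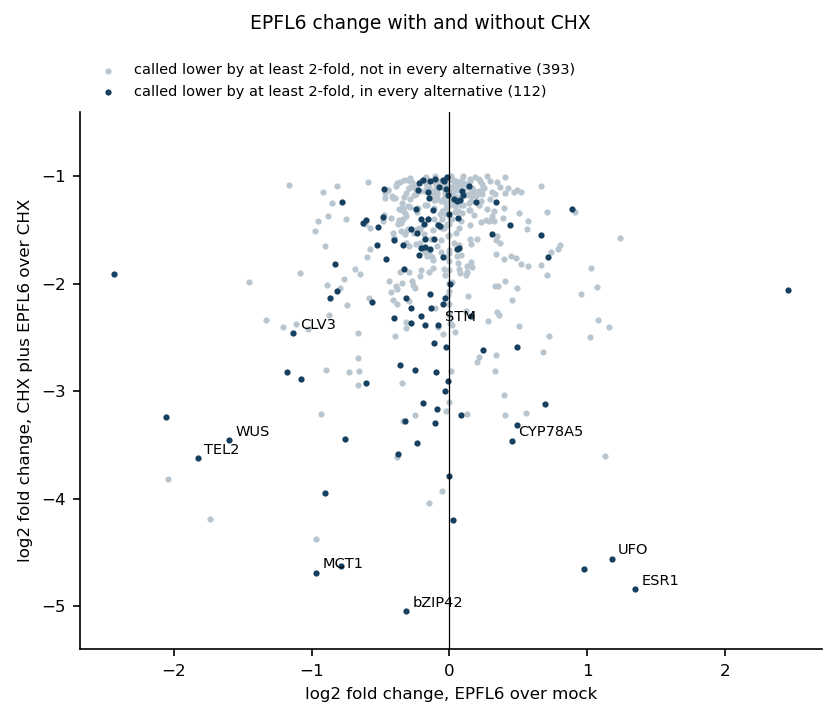
Log2 fold change of CHX plus EPFL6 over CHX against that of EPFL6 over mock, for the 505 members called at least 2-fold lower. The 2 axes share no library; WUS, CLV3 and TEL2 lie left of 0 and ESR1 and UFO right of it.

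Without CHX, single genes differed in their direction. WUS averaged 123 ± 2.27 with EPFL6 and 379 ± 60.6 in mock, and CLV3 311 ± 46.5 with EPFL6 and 683 ± 94.6 in mock. In TEL2 the averages were 101 ± 32.0 with EPFL6 and 347 ± 42.1 in mock. ESR1 averaged 161 ± 19.6 with EPFL6 and 62.2 ± 2.51 in mock and UFO 149 ± 37.2 with EPFL6 and 64.1 ± 6.16 in mock, both with every EPFL6 library above every mock library, although neither was called there. STM and BLH8 averaged 961 ± 139 with EPFL6 and 1009.7 ± 40.6 in mock and 516 ± 64.8 with EPFL6 and 523 ± 47.1 in mock, and CYP78A5 1259.6 ± 322 with EPFL6 and 905 ± 112 in mock. TEL2, CLV3, MCT2 and CYP82C2 are the 4 genes called for EPFL6 against mock, all lower with EPFL6, and of these CYP82C2 was higher with CHX plus EPFL6 than with CHX.

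**Figure D5:**
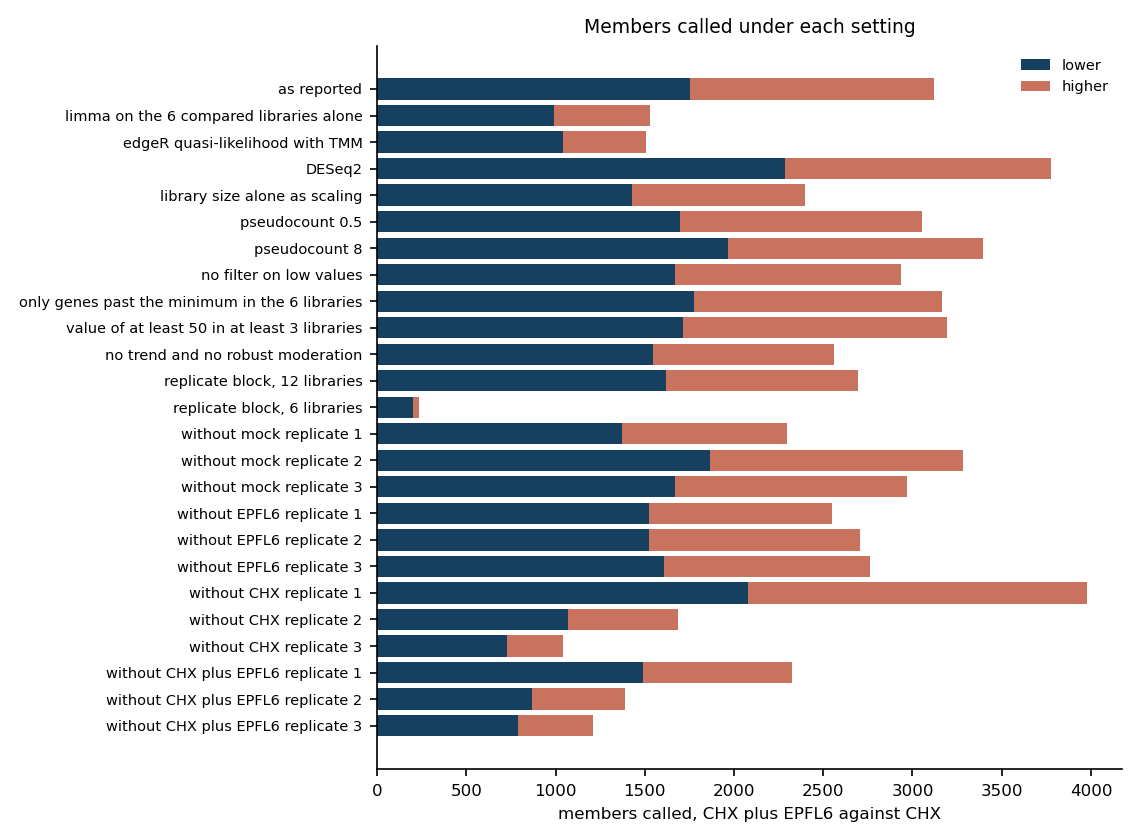
Number of members called lower and higher for CHX plus EPFL6 against CHX, as reported and under each of 24 alternatives. Among the bars that leave out a library, that without CHX replicate 1 is the longest, with 2078 lower and 1897 higher, and that without CHX replicate 3 the shortest, with 726 lower and 314 higher.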

How the data were processed

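RNA-seq values of 12 libraries (4 groups of 3) were used. The submitters' processing notes name featureCounts 2.0.0, STAR 2.7.6a, DESeq2 1.26.0 and the build TAIR10; the counting mode and strand setting are not given in the sources used here. The deposited signal values are reads divided by 1 size factor per library: dividing by the step gave whole reads for 100% of values within 1e-06. From them, log2(value + 1) was fitted with limma 3.58.1 (R 4.3.3; trend and robust moderation) over 4 groups, for the 23225 genes that reached 10 in 3 or more of the 12 libraries, two-sided, with Benjamini-Hochberg adjustment. Fold changes on this scale understate changes of low genes. edgeR 4.0.16 and DESeq2 1.42.0 on recovered reads were alternatives, beside other pseudocounts, filters and scalings, a replicate block and each library left out. The procedure was tested on simulated data. The labels do not tie replicates to separate experiments, so p-values measure the spread between these libraries.

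Members and gene lists were chosen with earlier results of these data known. Genes were named by a rule: WUS, CLV3 and STM, the 15 largest falls and 10 largest rises without overlap and with a mean of at least 50 in 1 group, up to 4 called members of each list, and the 5 largest changes per kilobase in each direction. Names, promoters and coordinates came from RefSeq TAIR10.1, which matched 22468 of 22589 members. Of the genes in the table, 636 were tested but are not members and 3477 were not tested. Results for some items are not reported here.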

Additional observations from a re-analysis of the deposited data

Results flagged for a closer look

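The change with EPFL6 under CHX differed from the change with EPFL6 alone in 30 of the 100 genes named by rule (interaction term of the 4-group limma fit, adjusted p under 0.05 over all genes tested), of which 29 are given. The values here are the first change minus the second, on the log2 scale. Both CHX groups enter the naming of these genes and the interaction term, and the share over all genes tested is not given here. Their number therefore describes the list and no more.

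In 4 genes the libraries of both contrasts were apart in opposite directions. For EPFL6 against mock, no overlap was seen with EPFL6 lower in 3.08% of all members and with EPFL6 higher in 3.58%. The rises of ESR1, UFO and TFL1 without CHX were not called, while the fall of CYP82C2 was. ESR1 differed by −6.20 ± 0.36 (SE; limma adjusted p = 7.3e-05), from −4.84 under CHX and 1.35 without it. UFO differed by −5.74 ± 0.50 (limma adjusted p = 0.00068), from −4.56 and 1.18. TFL1 differed by −1.61 ± 0.28 (limma adjusted p = 0.025), from −1.15 and 0.47. CYP82C2 differed by 4.86 ± 0.54 (limma adjusted p = 0.0023) and changed by −3.36 without CHX; its rise under CHX lost its call without CHX library 2 or 3 or any CHX plus EPFL6 library.

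Meristem and organ genes made up most of the rest, each lower under CHX, and lower by less or not lower without it: CYP78A5 (−3.91), BLH8 (−2.57), STM (−2.30), ZPR2 (−2.14), ZPR3 (−1.92), CYP78A7 (−1.89), MYB117 (−1.87), WUS (−1.85), TEL2 (−1.79), CUC1 (−1.39), CLV3 (−1.33), ANT (−1.12) and AIL7 (−1.0). The hormone and receptor genes were YUC4 (−2.21), ERL2 (−1.61), IAA31 (−1.38), BAS1 (−0.92), TAA1 (−0.85) and WOL (−0.51). The other genes were AT2G06045 (−5.63), AT5G15660 (−4.74), bZIP42 (−4.74), AT5G59305 (−3.84) and MCT1 (−3.72), and AT5G03490 (1.24), which rose under CHX.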

How the results depend on the processing

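The named genes kept their direction in all 24 alternatives: of 2396 values 1979 kept their side of the threshold, 417 lost it and 0 reversed. The number called moved more. The 6 libraries fitted alone gave 1528 members, 537 higher and 991 lower, and edgeR with TMM gave 1508, 467 higher and 1041 lower. DESeq2 called 29 at least 2-fold higher. Leaving out a library gave 1040 to 3975 changed, 314 to 1897 higher and 726 to 2078 lower, with 244 to 606 at least 2-fold lower and 7 to 49 at least 2-fold higher; the cause was not tested. The lowest changed count was without CHX replicate 3, and the highest without CHX replicate 1. With library size as the only scaling, the members' median log2 fold change was 0.02.

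Replicate numbers did not pair the libraries: deviations of same-numbered libraries correlated by 0.19, 0.15 and −0.24, and 2 of 6 libraries correlated best with their own number. With the replicate block the 12-library fit called 2694 members. The blocked 6-library fit called 234, 33 higher and 201 lower, with 140 at least 2-fold lower and 6 at least 2-fold higher.

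Depth limits the low end: UFO, LFY and bZIP42 rest on a few reads in each CHX plus EPFL6 library, so the size of their falls depends on the pseudocount.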
